A study of Homo sapiens with 8 samples.

Results

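The SUMO E1 subunits SAE1 and UBA2 (also named SAE2) and the SUMO paralogs SUMO2 and SUMO3 were followed by gene symbol in 2 tables of mRNA-seq read counts from HCT116, a human colorectal cancer cell line. Both tables held all 4 genes, out of 42125 and 23393 rows, and all 4 passed the expression filter of edgeR in each. Every library was labelled as coming from cells that stably carry a Tet-On shRNA against SAE2, also in the siRNA experiment, and the sources used here do not say whether this line is 1 clone. In the siRNA experiment, 2 libraries came from cells with control siRNA and 2 from cells with TFAP2C siRNA after 48 hrs (TFAP2C KD). In the Dox experiment, 2 libraries came from cells with 1 μg/mL doxycycline for 5 days (labelled SAE2 kd, here labelled UBA2 KD) and 2 from control cells, which the labels describe as given DMSO and the methods as kept without Dox. Whether the cells of the siRNA experiment also received Dox is not stated. No group is described as given Dox without carrying the shRNA, so effects of Dox itself and of the shRNA cannot be told apart. No label says whether replicates were separate cultures, so the p-values measure the spread between these libraries, which may be technical.

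SUMOylation attaches a small ubiquitin-like protein to lysines of target proteins, mostly in the nucleus. The mature SUMO is first activated by the E1, a heterodimer in which SAE1 takes part in forming the SUMO adenylate and UBA2 carries the catalytic cysteine. It is then passed to a single E2 and, often with an E3 ligase, to the target, from which SUMO proteases remove it again. SUMO2 and SUMO3 are nearly identical once mature, can form chains and are usually measured together as SUMO2/3 at the protein level, whereas their mRNAs can be counted apart.

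Because these results depend on whether 51-base reads can tell the paralogs apart, the coding sequences were compared first. Over 284 aligned coding bases of the MANE Select transcripts (GENCODE, GRCh37), SUMO2 and SUMO3 shared 232, which is 81.7%. The 2 lines below give the 150 aligned coding bases with the fewest differences, coding bases 130 to 279 of SUMO2 and 127 to 276 of SUMO3, with the 23 bases that differ in capitals.
SUMO2: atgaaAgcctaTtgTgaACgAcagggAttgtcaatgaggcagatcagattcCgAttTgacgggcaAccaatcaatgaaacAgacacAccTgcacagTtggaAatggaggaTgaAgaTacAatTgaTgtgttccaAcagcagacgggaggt
SUMO3: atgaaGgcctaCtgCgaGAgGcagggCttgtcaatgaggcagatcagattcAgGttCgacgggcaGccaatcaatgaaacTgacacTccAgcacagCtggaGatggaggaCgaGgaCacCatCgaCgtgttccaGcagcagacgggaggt
The capitals are spread along the stretch, and the longest identical run in the aligned coding sequences was 24 bases. No window of 51 bases was shared by the 2 mRNAs (0 windows), so an error-free read of one paralog could not match the other without a mismatch.

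Copies of SUMO2 elsewhere in the genome were a larger limit. Of the 238 windows of 51 bases in the SUMO2 coding sequence, 187 (78.6%) occurred without a mismatch at another place in GRCh37, and 19 other alignments covered at least 200 of its coding bases at 81.3% to 97.5% identity. GENCODE lists 19 SUMO2 pseudogenes, and the count tables hold 0 rows with a pseudogene symbol of any of the 4 genes. UBA2 had 4 other alignments over at least 200 coding bases, at 92.9% to 97.2% identity, and SAE1 had 1, at 92.9%. Rows for copies under other names were not searched for. Over the whole mRNA the share of such windows was 26.6% for SUMO2, 10.9% for UBA2, 3.88% for SAE1 and 0% for SUMO3. The SUMO2 row of the Dox table is only 1.062 kb long, so the share over the bases counted there may differ and was not computed. Windows that match elsewhere with mismatches were not counted. By exact matches, no part of the SUMO3 mRNA was affected, while SUMO2 counts could lose reads with more than 1 match or gain reads of copies. The same holds for UBA2 and SAE1, over a smaller share of the mRNA. How such reads were counted is not given in the sources used here.

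Rows that overlap the members were listed as a second limit. In the siRNA table, SUMO2 (chromosome 17, 75165586 to 75182959 on GRCh38, minus strand) overlapped JPT1 on the same strand over 2696 bases, and SAE1 (chromosome 19, 47113274 to 47210636, plus strand) overlapped AC008755.1 on the opposite strand over 503 bases. UBA2 (chromosome 19, 34428352 to 34471251, plus strand) and SUMO3 (chromosome 21, 44805617 to 44818779, minus strand) overlapped no other row there. In the Dox table, with positions of hg19, SUMO2 (chromosome 17, 73163825 to 73179098) and SUMO3 (chromosome 21, 46225532 to 46238044) overlapped no row. UBA2 (chromosome 19, 34919268 to 34960798) and SAE1 (chromosome 19, 47634080 to 47713893) lay inside a KIR2DL4 row that spans much of the chromosome and held at most 1 count.

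Total counts ranged from 20785035 to 24465109 in the siRNA experiment and from 18213739 to 20607813 in the Dox experiment. The 4 members held 618 to 7427 counts per library, for which counting error alone gives a coefficient of variation between 1.16% and 4.02%. Levels are given as CPM, read counts scaled to library size with the TMM factors of edgeR, and in bulk libraries fewer cells with an mRNA and less of it per cell cannot be told apart. TFAP2C, the target of the siRNA, had 18.9 and 20.5 CPM with control siRNA and 3.46 and 4.30 CPM in TFAP2C KD. Its log2 fold change was -2.34 with an adjusted p of 7.67e-06 by the quasi-likelihood test of edgeR. TFAP2C KD replicate 1 stood apart from the rest of that experiment, since edgeR called 2825 genes with it as the only knockdown library and 537 with replicate 2 alone. Of 8 epithelial markers, 6 were at 18.8 CPM or more in every library, and VIL1 and CDX1 were at most 0.144 CPM. Of 11 markers of fibroblasts, immune and endothelial cells, 10 stayed at or under 1.93 CPM in all 8 libraries, COL1A2, DCN and LUM were at 0 in all, and COL1A1 had 14.9 to 47.5 CPM.

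UBA2, the target of the shRNA and the catalytic subunit of the E1, did not change detectably in either experiment. In the Dox experiment it had 162 and 146 CPM in the control libraries and 147 and 153 CPM in the libraries labelled UBA2 KD. Both labelled libraries lay between the 2 controls, so the groups overlapped. The log2 fold change of -0.036 (95% interval -0.15 to 0.078, adjusted p = 0.766, edgeR), with a lower bound of -9.87% in percent, was smaller than the log2 gap of 0.14 between the control replicates, and without control replicate 1 it was 0.038. The mRNA counts therefore do not show the knockdown that the labels name, the protein is not measured by them, and directions in this experiment are those of the labels. In the siRNA experiment, UBA2 had 99.1 and 97.8 CPM with control siRNA and 91.8 and 93.9 CPM in TFAP2C KD. Both TFAP2C KD libraries were below both controls, with a log2 fold change of -0.084 (95% interval -0.24 to 0.067, adjusted p = 0.649, edgeR). The lower bound corresponds to a change of -15.1%.

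All 4 genes were well expressed, and SAE1 was the most abundant by counts in both experiments. By mean CPM, SAE1 ranked 494 of the 14991 genes tested in the siRNA experiment and 581 of the 13381 tested in the Dox experiment. SUMO3 ranked lowest of the 4, at 6512 and 4745. UBA2 and SUMO2 lay between them, above 83.9% and 86.6% of the genes tested in the siRNA experiment.

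Levels can be compared between genes only per length, and the order then rested on the length given to SUMO2. The length of SUMO2 is 3.343 kb in the siRNA table and only 1.062 kb in that of the Dox experiment. With the lengths of the siRNA table, SAE1 had a median of 81.3 CPM per kb over its 4 libraries (range 79.0 to 91.6), followed by SUMO2 at 32.6, UBA2 at 19.99 and SUMO3 at 11.3 CPM per kb. With those of the Dox table, SUMO2 came first at a median of 121 CPM per kb (range 108 to 124), and SAE1 followed at 106 (range 106 to 109), with overlapping ranges. When each gene was given the length of its MANE Select mRNA in both tables, SAE1 again led in both, at medians of 109 and 116 CPM per kb, against 34.4 and 40.7 for SUMO2. SUMO2 was then followed by UBA2 at 23.9 and 37.5 and by SUMO3 at 17.7 and 32.6 CPM per kb. In the Dox libraries the ranges of SUMO2 (36.3 to 41.7) and UBA2 (36.5 to 40.3) overlapped with this length. The Dox rows of both genes, however, stop short of these mRNAs. The SUMO2 row begins at 73163825, whereas its mRNA reaches 73161681, and the UBA2 row ends at 34960798, short of 34962156. Their values with mRNA length are therefore too low there. In the Dox libraries this leaves unsettled the order of SAE1 and SUMO2, and that of SUMO2 and UBA2. The SUMO2 row of the siRNA table, at 3.343 kb, held 107 to 112 CPM, against 115 to 132 CPM at 1.062 kb in the Dox table. The longer row thus had no higher CPM, and 2696 bases of its span overlap JPT1 on the same strand. The place of SUMO2 in the siRNA libraries therefore also rests on the length used. The lowest place of SUMO3 held with both kinds of length in both tables.

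**Figure D1:**
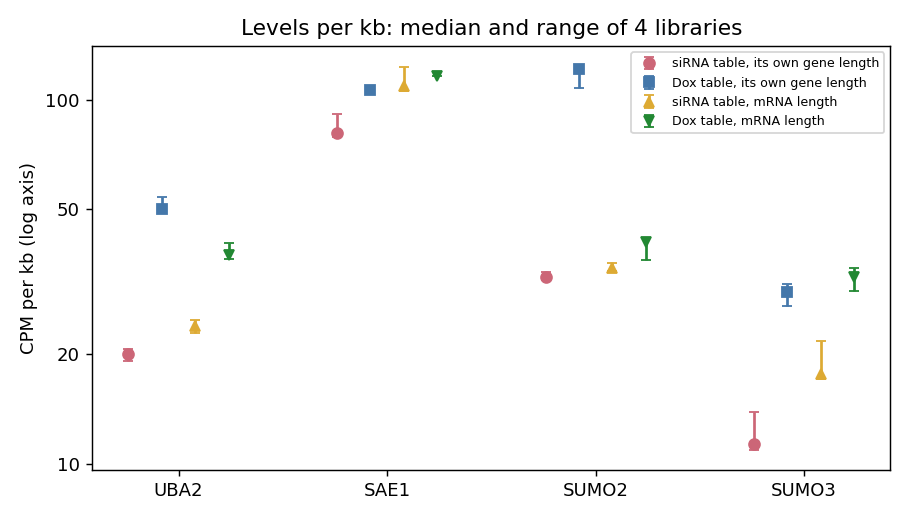
Level per kb of UBA2, SAE1, SUMO2 and SUMO3 in CPM per kb on a log axis, as the median (symbol) and range (bars) of the 4 libraries of each experiment, with the gene lengths of each table and with MANE Select mRNA lengths. SUMO2 is the gene that moves most, from 40.7 with its mRNA length to 121 CPM per kb with the length of the Dox table. The Dox rows of SUMO2 and UBA2 do not cover their whole mRNA, so their values with mRNA length are too low there.

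SAE1, the other subunit of the E1, was close to level in the Dox experiment. It had 300.3 and 293 CPM in the controls and 294 and 293 CPM in the labelled libraries. The labelled libraries lay at the level of the lower control, and the log2 fold change of -0.016 (95% interval -0.11 to 0.079, adjusted p = 0.880, edgeR) was smaller than the log2 gap of 0.033 between the controls. In the siRNA experiment SAE1 had 267 and 274 CPM with control siRNA and 309.7 and 276 CPM in TFAP2C KD. Only TFAP2C KD replicate 1 stood clear of the controls, and replicate 2 was barely above them. The log2 fold change was 0.11 (95% interval -0.045 to 0.27, adjusted p = 0.547, edgeR), against a log2 gap of 0.17 between the TFAP2C KD replicates, and it was 0.027 without TFAP2C KD replicate 1. Without replicate 2 it was 0.20 (adjusted p = 0.0176, edgeR), in a range of adjusted p from 0.0176 to 0.99973 over 11 alternatives.

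SUMO2, the more abundant of the paralogs by counts, had 128 and 132 CPM in the controls of the Dox experiment and 115 and 129.7 CPM in the labelled libraries. Replicate 1 of the labelled libraries was the lowest of the 4, and replicate 2 lay between the controls. The log2 fold change was -0.088 (95% interval -0.21 to 0.032, adjusted p = 0.404, edgeR). Leaving out replicate 1 of the labelled libraries gave -0.0020, and leaving out replicate 2 gave -0.18, and neither passed. In the siRNA experiment the values were 107 and 108 CPM with control siRNA and 112 and 109 CPM in TFAP2C KD. The groups did not overlap, but the whole range was narrow and the log2 fold change was 0.042 (95% interval -0.11 to 0.19, adjusted p = 0.835, edgeR). JPT1, which overlaps SUMO2 in that table, had 0.16 (adjusted p = 0.387).

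With all libraries SUMO3, like SAE1 and SUMO2, had log2 fold changes of opposite sign in the 2 experiments, and neither change of SUMO3 passed the test. Those of SUMO3 were then the largest of the 4 in size. This did not hold without TFAP2C KD replicate 1, nor in the Dox experiment without control replicate 1 or without replicate 2 of the labelled libraries. In the siRNA experiment it had 31.0 and 29.6 CPM with control siRNA and 37.8 and 30.5 CPM in TFAP2C KD. TFAP2C KD replicate 1 was high, whereas replicate 2 lay between the controls. The log2 fold change was 0.17 (95% interval -0.057 to 0.40, adjusted p = 0.525, edgeR), which allows a rise of up to 31.9%. Leaving out TFAP2C KD replicate 1 gave 0.0082, and leaving out replicate 2 gave 0.32 (adjusted p = 0.00261, edgeR), with 1 library standing for the knockdown. Over 11 alternatives the adjusted p ranged from 0.00261 to 0.99973. In the Dox experiment it had 59.9 and 56.8 CPM in the controls and 56.7 and 52.0 CPM in the labelled libraries. Both labelled libraries were below both controls, the first of them by very little. The log2 fold change was -0.10 (95% interval -0.24 to 0.035, adjusted p = 0.395, edgeR), and it was -0.040 without replicate 2 of the labelled libraries.

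**Figure D2:**
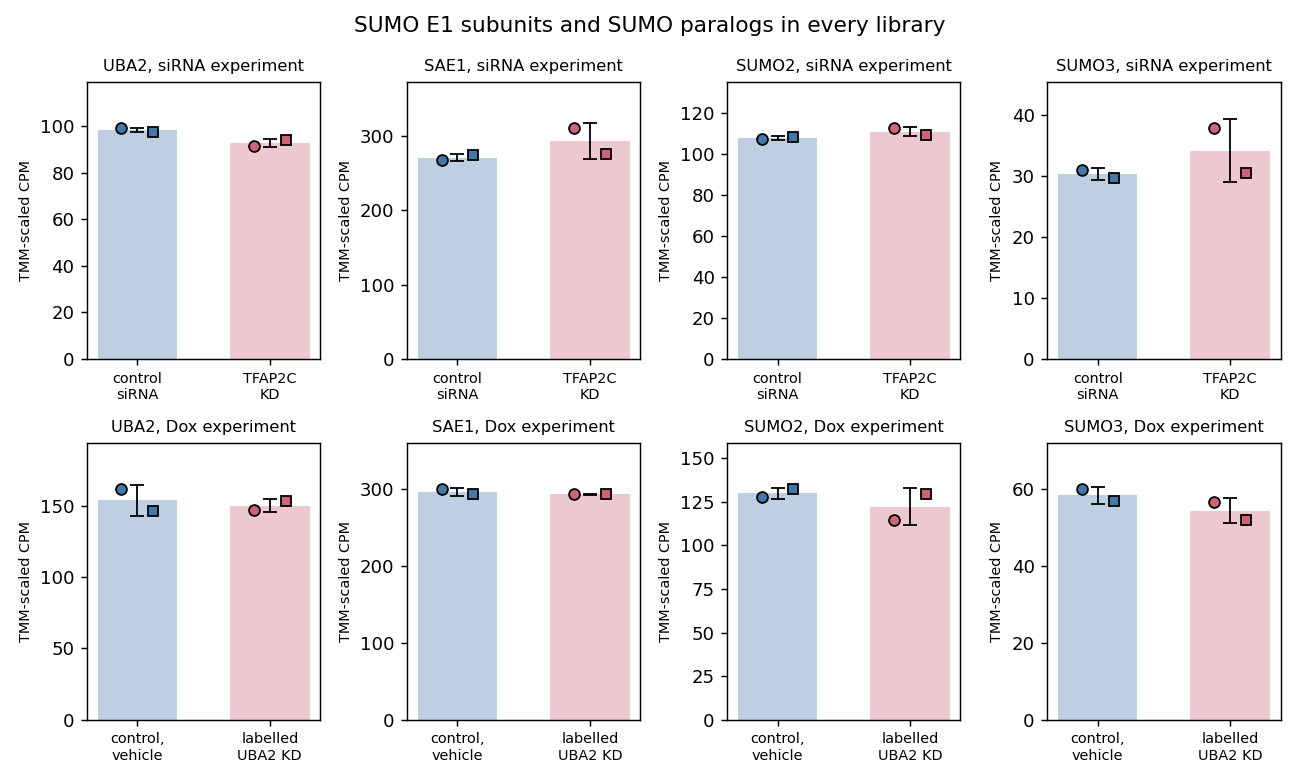
TMM-scaled CPM of UBA2, SAE1, SUMO2 and SUMO3 in the siRNA experiment (upper row) and the Dox experiment (lower row). Bars give the mean of 2 libraries, error bars the SD, circles replicate 1 and squares replicate 2, and TFAP2C KD replicate 1 is the high library for SAE1 (309.7 CPM) and SUMO3 (37.8 CPM).

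By edgeR, 0 of the 4 members passed an adjusted p of 0.05 in TFAP2C KD, where 0.74% of all genes tested did (0.26% higher and 0.48% lower). The labelled UBA2 KD also had 0, where 9.98% of genes passed (5.52% higher and 4.47% lower). At an unadjusted p under 0.05 there were 0 members in each, against 12.6% and 22.7% of genes. The Wald test of DESeq2 called 0 in each, against 0.921% and 6.24% of the genes to which it gave an adjusted p. In TFAP2C KD the groups did not overlap for 3 of the 4, against 44.7% of all genes tested (22.4% higher and 22.4% lower), and 3 log2 fold changes were above 0, with a median of 0.078 over the members and -0.0038 over all genes. Without TFAP2C KD replicate 1 the median of the members was 0.016. In the labelled UBA2 KD the groups did not overlap for 1, SUMO3, against 51.3% of genes (25.5% higher and 25.8% lower). There all 4 log2 fold changes were below 0, with a median of -0.062 against -0.00042 over all genes, although those of UBA2 and SAE1 were above 0 without control replicate 1. With 1 library left out in turn, that median ranged from -0.084 to -0.011. The absolute change of SUMO3 exceeded that of 69.0% of genes in TFAP2C KD and 51.6% in the labelled UBA2 KD, and that of SAE1 exceeded 51.9% and 9.01%.

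The 2 experiments were then put in a common model to ask whether a member changed differently in them. Of the 13179 genes in it, 2.37% differed at an adjusted p under 0.05, and 0 of the 4 members did, with 0 also at an unadjusted p under 0.05. The log2 fold change in TFAP2C KD exceeded that in the labelled UBA2 KD by 0.26 for SUMO3 (95% interval -0.013 to 0.54, adjusted p = 0.379, edgeR). It was 0.12 for SAE1 and 0.12 for SUMO2 (adjusted p = 0.577 and adjusted p = 0.629). For UBA2 the difference was -0.061 (95% interval -0.25 to 0.13, adjusted p = 0.829). The value of SUMO3 was 0.12 without TFAP2C KD replicate 1 and 0.40 without TFAP2C KD replicate 2 (adjusted p = 0.0147, edgeR), with adjusted p from 0.0147 to 0.696 over 14 alternatives. The experiments were counted on different annotations, and the design does not separate this from the treatments.

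**Figure D3:**
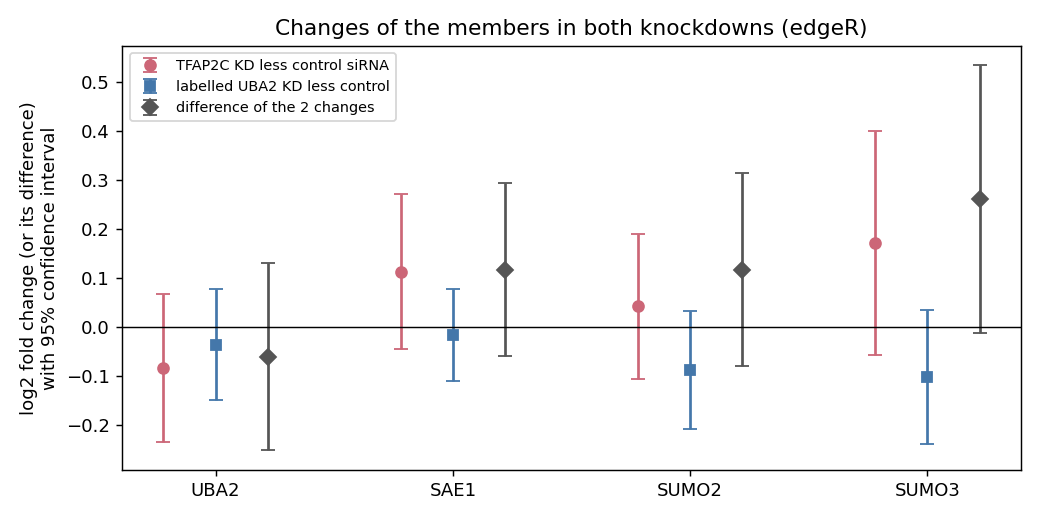
Log2 fold changes of the 4 members in TFAP2C KD (circles) and in the libraries labelled UBA2 KD (squares), and the difference of the 2 changes (diamonds), with 95% confidence intervals from edgeR. Every interval includes 0, and the widest is that of the difference for SUMO3, from -0.013 to 0.54.

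Ratios between members do not depend on the scaling of the libraries, so the balance of the paralogs and of the E1 subunits was also followed within each library. SUMO2 made up 77.5% of the SUMO2 and SUMO3 counts in control siRNA replicate 1 (95% exact binomial interval 76.1% to 78.9%) and 78.5% in replicate 2 (77.0% to 80.02%). In TFAP2C KD it was 74.8% (73.4% to 76.3%) and 78.2% (76.7% to 79.6%). TFAP2C KD replicate 1 was the lowest, with an interval that just overlapped that of control replicate 1. The group means of 78.0% ± 0.717 and 76.5% ± 2.36 (SD, n = 2 each, exact permutation p = 0.667, two-sided) differed by less than the spread of the knockdown replicates. In the Dox experiment the share was 68.1% and 69.9% in the controls and 66.9% and 71.4% in the labelled libraries. The labelled libraries lay on both sides of the controls, with means of 69.0% ± 1.33 and 69.2% ± 3.15 (SD, n = 2 each, exact permutation p = 1, two-sided). The intervals cover counting error only, and 2 against 2 libraries cannot give an exact p under 0.333.

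For the E1, UBA2 counts were 37.1% and 35.7% of SAE1 counts with control siRNA and 29.6% and 34.1% in TFAP2C KD. Both TFAP2C KD libraries had less UBA2 per SAE1 than both controls, TFAP2C KD replicate 1 by far the most. On the log2 scale the means were -1.46 ± 0.039 and -1.65 ± 0.14 (SD, n = 2 each, exact permutation p = 0.333, two-sided, the smallest possible), and the difference of -0.20 was -0.094 without TFAP2C KD replicate 1. In the Dox experiment UBA2 counts were 53.8% and 49.8% of SAE1 counts in the controls and 50.02% and 52.2% in the labelled libraries. These values overlapped, with a log2 difference of -0.019 (exact permutation p = 1, two-sided, n = 2 each).

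**Figure D4:**
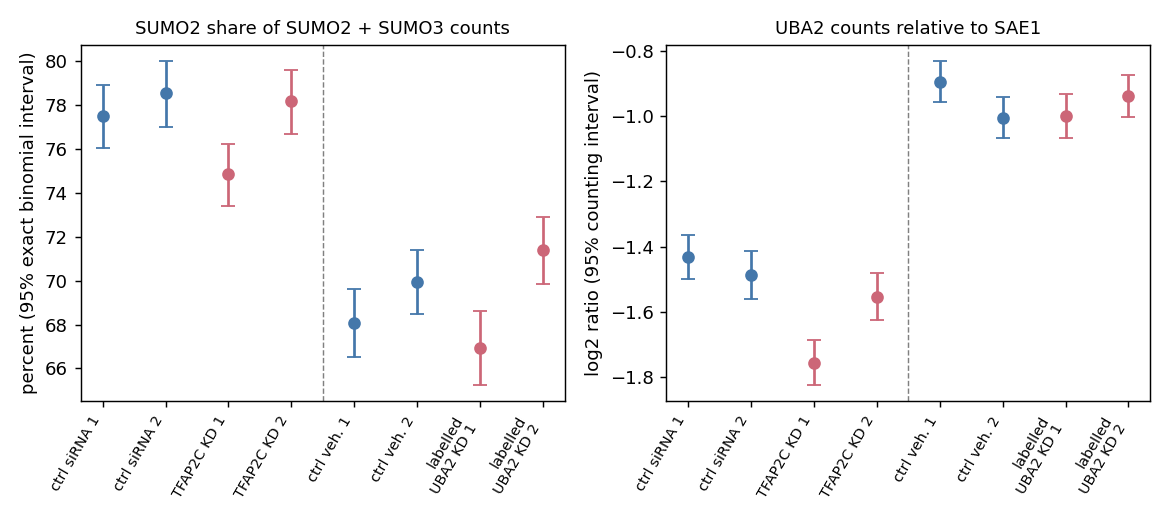
Share of SUMO2 in the SUMO2 and SUMO3 counts in percent with 95% exact binomial intervals (left), and log2 ratio of UBA2 to SAE1 counts with 95% counting intervals (right), for each of the 8 libraries, controls in blue and knockdowns in red, with the experiments divided by a dashed line. TFAP2C KD replicate 1 is the lowest of the siRNA experiment in both, at 74.8% and -1.75.

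UBA2, SUMO2 and SUMO3 were higher in every library of the Dox experiment than in any of the siRNA experiment. SUMO3 had 29.6 to 37.8 CPM in the siRNA experiment and 52.0 to 59.9 CPM in the Dox experiment, and UBA2 had 91.8 to 99.1 and 146 to 162 CPM. SUMO2 ranged from 107 to 112 and from 115 to 132 CPM, and SAE1 from 267 to 309.7 and from 293 to 300.3 CPM. The ranges of SAE1 overlapped. The tables were made with different annotations and from cells treated differently, and these cannot be told apart here, so no test was made.

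The promoters are shown because TFAP2C, an AP-2 factor, was the siRNA target. RefSeq (GRCh38.p14) gave the 250 bases before and 50 after the start for 3 of the 4 genes, and SAE1 has no entry in the table. They were searched for GCCNNNGGC, a palindromic form of the AP-2 site that reads the same on both strands, and the match is in capitals.
UBA2, chr19:34428131-34428430, plus strand: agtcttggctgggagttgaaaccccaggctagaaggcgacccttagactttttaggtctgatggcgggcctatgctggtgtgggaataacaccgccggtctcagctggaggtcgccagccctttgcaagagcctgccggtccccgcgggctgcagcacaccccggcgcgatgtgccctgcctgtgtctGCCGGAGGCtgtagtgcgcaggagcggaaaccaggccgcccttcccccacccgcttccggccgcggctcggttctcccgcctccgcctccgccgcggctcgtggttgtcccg
SUMO2, chr17:75182910-75183209, minus strand: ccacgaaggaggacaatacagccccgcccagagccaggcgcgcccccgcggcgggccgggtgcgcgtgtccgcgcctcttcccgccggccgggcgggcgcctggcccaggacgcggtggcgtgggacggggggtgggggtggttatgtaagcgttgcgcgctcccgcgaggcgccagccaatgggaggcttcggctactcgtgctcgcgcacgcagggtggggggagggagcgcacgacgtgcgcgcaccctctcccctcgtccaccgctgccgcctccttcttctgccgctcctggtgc
SUMO3, chr21:44818013-44818312, minus strand: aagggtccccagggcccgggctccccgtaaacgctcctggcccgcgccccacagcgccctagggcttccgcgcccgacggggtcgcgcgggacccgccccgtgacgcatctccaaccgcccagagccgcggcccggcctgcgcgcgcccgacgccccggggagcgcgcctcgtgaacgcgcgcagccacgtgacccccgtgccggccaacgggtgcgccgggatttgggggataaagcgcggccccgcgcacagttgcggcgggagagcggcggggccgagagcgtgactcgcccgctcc
UBA2 held 1 match, which began 62 bases before the start, as in the 23.2% of 35116 RefSeq promoters with at least 1. SUMO2 and SUMO3 held 0. A match is a description of these letters and not a site, and UBA2 mRNA in TFAP2C KD is given above. All 3 promoters are rich in G and C, at 67.7%, 75.3% and 78.3%, against a median of 58.7% over all promoters.

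The rest of the SUMO pathway was followed as 3 lists, of which 25 genes are reported, all tested in both experiments. The lists are not reported whole, so the counts hold for these 25 and not for the pathway. In TFAP2C KD, 0 of the 25 passed by edgeR, against 0.74% of all genes tested. By DESeq2 0 passed, against 0.921% of the genes to which it gave an adjusted p. In edgeR 1 gene had an unadjusted p under 0.05, against 12.6%. This was DESI1, a SUMO protease, with 64.2 and 65.2 CPM with control siRNA and 77.2 and 71.6 CPM in TFAP2C KD. Both TFAP2C KD libraries were above both controls, with a log2 fold change of 0.20 that did not pass (adjusted p = 0.291, edgeR). Without TFAP2C KD replicate 1 it was 0.15, and without replicate 2 it was 0.26 and passed, in a range of adjusted p from 0.00454 to 0.99973 over 11 alternatives. MUL1, a mitochondrial SUMO E3 ligase, led its list at 0.17 (adjusted p = 0.397, edgeR). MORC3, a protein of PML bodies, led the remaining list at -0.18 (adjusted p = 0.487, edgeR), with groups that overlapped. Its value was -0.049 without TFAP2C KD replicate 1 and -0.32 without replicate 2, where it passed, in a range of adjusted p from 0.00203 to 0.99973.

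In the libraries labelled UBA2 KD, 0 of the 25 reported genes passed by edgeR, against 9.98% of all genes tested. By DESeq2 0 passed, against 6.24% of the genes to which it gave an adjusted p. In edgeR 5 had an unadjusted p under 0.05, against 22.7%. ZNF451, a SUMO E3 ligase that builds SUMO2/3 chains, had 98.9 and 90.1 CPM in the controls and 102 and 106 CPM in the labelled libraries. Both labelled libraries were above both controls, and the log2 fold change of 0.14 did not pass (adjusted p = 0.153, edgeR). It was 0.21 without control replicate 1 and 0.072 without control replicate 2. NSMCE2, of the same list, went the other way at -0.20 (adjusted p = 0.155, edgeR). ATRX, listed with the PML body genes, was also lower, at -0.11 (adjusted p = 0.200, edgeR). SENP6, a protease that trims SUMO2/3 chains, and DAXX, a SUMO-binding histone chaperone, led the other lists at 0.12 and -0.14 (adjusted p = 0.172 and adjusted p = 0.149), and DAXX was at -0.090 without control replicate 2. The lists had medians of 0.032 for proteases, -0.036 for the reported E3 ligases and -0.041 for SUMO-targeted ubiquitin ligases and PML body genes, against -0.00042 for all genes.

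**Figure D5:**
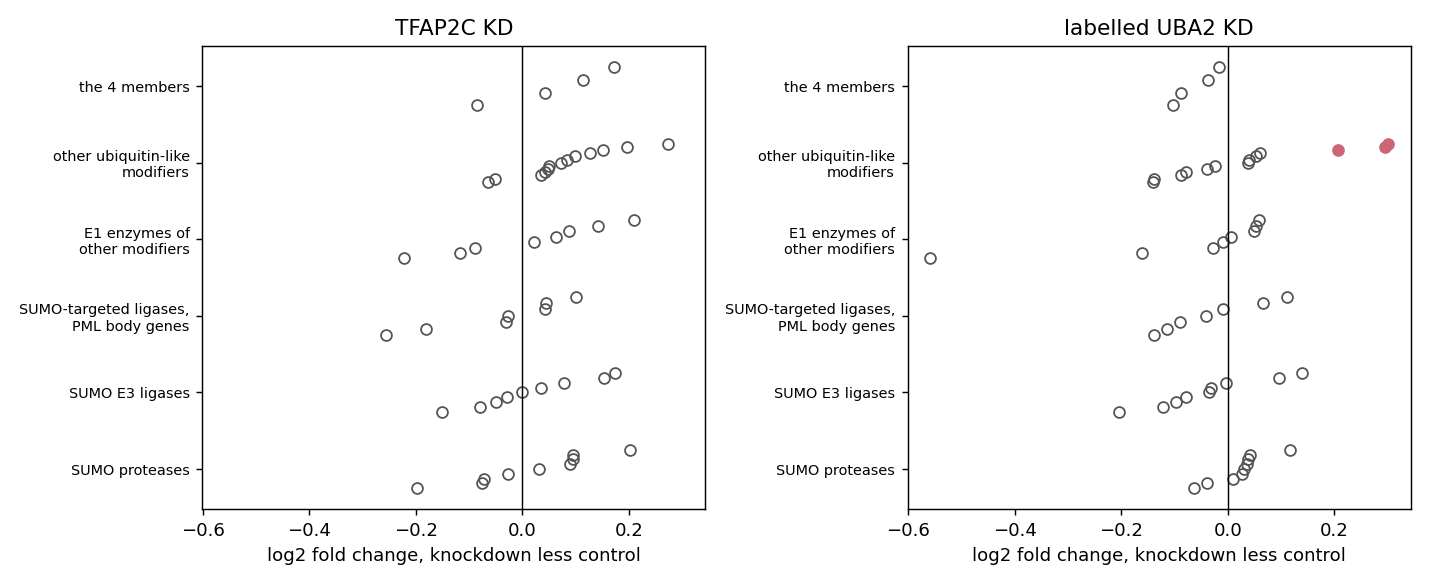
Log2 fold changes of the tested and reported genes of 5 lists and of the 4 members in TFAP2C KD (left) and the libraries labelled UBA2 KD (right), 1 circle per gene, filled where the adjusted p is under 0.05 in edgeR. The 3 filled circles, all on the right and above 0, are UFM1, ATG12 and MAP1LC3B.

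The genes whose pattern was most like that of each member were found by the Pearson correlation of log2 CPM over the 8 libraries, after the mean of each experiment was taken off. The search took in 7807 genes, those that averaged 4 or more log2 CPM in both experiments. NABP2, ISG20L2 and RBM42 were most like SAE1 (r = 0.986, 0.985 and 0.984). AIFM1, STIP1 and IGHMBP2 were most like SUMO3 (0.984, 0.977 and 0.976), AHR, PRRC1 and ATF7IP most like UBA2 (0.972, 0.943 and 0.943), and PRPS2, VSNL1 and SCRN2 most like SUMO2 (0.973, 0.951 and 0.950). An r over 0.9 was reached by 216 genes for SAE1, 122 for SUMO3, 24 for UBA2 and 14 for SUMO2. Between members it was highest for SAE1 and SUMO3, at 0.878, and lowest for UBA2 and SAE1, at -0.395. These describe 8 libraries, among which TFAP2C KD replicate 1 was high for both SAE1 and SUMO3, and genes in the same libraries share their scaling.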

How the data were processed

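Counts per gene of 8 mRNA-seq libraries in 4 groups of 2 were analysed, with groups taken from the sample titles. Per the methods and the submitters' processing notes, the authors aligned 51-base single-end reads to hg19 with TopHat2, counted them on RefSeq genes with HTSeq 0.9.1 and deposited raw read counts. The siRNA table nevertheless carries GRCh38 coordinates and Ensembl gene types, so each table was fitted alone. The deposited tables also give a gene length in kb, used for CPM per kb. Strand setting and treatment of reads with several matches are not given in the sources used here.

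Counts were filtered by the default of filterByExpr, scaled by TMM and tested by quasi-likelihood in edgeR 4.0.16 (R 4.3.3), two-sided, without a replicate term, with Benjamini-Hochberg adjustment over all genes. Each standard error was the size of the log2 fold change over the root of F. The difference between experiments used 1 fit of all 8 libraries over 21257 shared symbols. DESeq2 1.42.0 was an alternative, beside other scalings and filters, a replicate block and each library left out. The code was tested on simulated data. Coding sequences were aligned with Biopython 1.88, and 51-base windows were searched in GRCh37 with blastn 2.17.0 (word size 28, identity at least 80%).

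The members and lists were chosen with earlier results of these data known. The lists, written from general knowledge, were SUMO proteases, SUMO E3 ligases, SUMO-targeted ubiquitin ligases with PML body genes, E1 enzymes of other modifiers and other ubiquitin-like modifiers. Named from them were all genes that passed, or the gene with the smallest p of a list with none, and the 3 genes most like each member. NSMCE2 and ATRX are named beside these. The remaining SUMO gene, the E2 and part of the lists are not reported here, and the counts over lists leave these out.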

Additional observations from a re-analysis of the deposited data

How the results depend on the processing

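With all libraries kept, no member passed under another scaling, filter or test, with the replicate block or in a fit of all 8 libraries, and the directions of all 4 held in these. Leaving out 1 library changed more. Without TFAP2C KD replicate 2, when 1 library stands for the knockdown and is assumed to vary like the controls, SAE1 (0.20, adjusted p = 0.0176, edgeR) and SUMO3 (0.32) passed in TFAP2C KD. With a library left out, log2 fold changes in TFAP2C KD ranged from 0.027 to 0.20 for SAE1, 0.0082 to 0.32 for SUMO3, 0.023 to 0.065 for SUMO2 and -0.10 to -0.067 for UBA2. In the labelled UBA2 KD they ranged from -0.032 to 0.0014 for SAE1, -0.11 to 0.038 for UBA2, -0.18 to -0.0020 for SUMO2 and -0.16 to -0.040 for SUMO3, with SAE1 and UBA2 above 0 without control replicate 1. Differences between the experiments ranged from 0.052 to 0.19 for SAE1, 0.12 to 0.40 for SUMO3, 0.039 to 0.21 for SUMO2 and -0.13 to 0.0095 for UBA2, above 0 without control replicate 2 of the Dox experiment. The difference in SUMO2 share ranged from -3.19 to 0.156 percentage points in TFAP2C KD and from -2.07 to 2.38 in the labelled UBA2 KD, and that of the log2 ratio of UBA2 to SAE1 from -0.296 to -0.0943 and from -0.0746 to 0.0357.

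The 111 genes called in TFAP2C KD became 398 without a filter and 271 in a fit of all 8 libraries, and 49 to 2825 with a library left out, the highest without TFAP2C KD replicate 2. The 1336 genes called in the labelled UBA2 KD became 673 with DESeq2, 696 in a fit of all 8 libraries and 833 to 1271 with a library left out. When scaled by library size alone, the calls there were 588 higher and 805 lower genes, against 738 and 598. Of the 25 other SUMO pathway genes reported, 0 to 10 were called in TFAP2C KD with a library left out, the highest without TFAP2C KD replicate 2, and 0 in the labelled UBA2 KD. The cause of these shifts was not tested. With the replicate number as a block, 172 genes were called in TFAP2C KD and 1308 in the labelled UBA2 KD, and 0 members in either. The numbers are not known to pair the libraries, since deviations of same-numbered libraries had correlations of -0.433 and -0.133, and a crossed replicate block, chosen after seeing the data, gave 467 and 1708. Since the tables list no rows with a pseudogene symbol of the members, the alternative that adds their counts was not run. Counting error of the members was at most 4.02%, and each test rests on 2 libraries per group.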

Other observations

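Other ubiquitin-like modifiers were followed beside the SUMO paralogs. Of 14 listed genes, 13 were tested in each experiment, and UBD was not. In the libraries labelled UBA2 KD, 3 rose and 0 fell at an adjusted p under 0.05 in edgeR, a share set beside 5.52% of all genes that rose. MAP1LC3B, which is conjugated to lipid in autophagy, had 69.2 and 72.5 CPM in the controls and 86.2 and 88.4 CPM in the labelled libraries, and the log2 fold change was 0.30 ± 0.060 (SE, adjusted p = 0.000742). UFM1, the modifier of UFMylation, had 66.3 and 65.7 CPM in the controls and 76.8 and 85.1 CPM in the labelled libraries, and the log2 fold change was 0.30 ± 0.064 (SE, adjusted p = 0.00157). ATG12, which is joined to ATG5 in autophagy, had 149 and 144 against 167 and 171 CPM, and the log2 fold change was 0.21 ± 0.052 (SE, adjusted p = 0.00803). In each of these the labelled libraries lay above both controls, as they did for 25.5% of all genes tested. The genes were named for passing in these same libraries, so this adds no support. An effect of Dox itself cannot be told apart here from an effect of the shRNA. MAP1LC3B passed in 11 of 11 alternatives (adjusted p from 8.85e-05 to 0.0165), UFM1 in 10 (4.10e-05 to 0.217) and ATG12 in 9 (0.00333 to 0.249). UFM1 and ATG12 were lost in the fit of all 8 libraries, and ATG12 also without control replicate 2 (adjusted p = 0.125). In TFAP2C KD 0 of the 13 passed in edgeR, with 1 at an unadjusted p under 0.05, against 0.74% and 12.6% of all genes tested. In DESeq2 0 passed, against 0.921% of the genes to which it gave an adjusted p. The median log2 fold change of the 13 was 0.072. ISG15, an interferon-induced modifier, led with 178 and 188 CPM with control siRNA and 229 and 212 CPM in TFAP2C KD, and a log2 fold change of 0.27 ± 0.071 (SE, adjusted p = 0.135). It was 0.22 without TFAP2C KD replicate 1 and 0.33 without replicate 2. It passed in 4 of 11 alternatives, among which the adjusted p ranged from 1.32e-05 to 0.99973.

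The E1 enzymes of other modifiers were followed beside UBA2 and SAE1, and 0 of 8 passed by edgeR in either experiment, with 1 (TFAP2C KD) and 0 (labelled UBA2 KD) at an unadjusted p under 0.05 and 0 in either by DESeq2. Of all genes tested, 0.74% and 9.98% passed by edgeR, and 12.6% and 22.7% had such a p. DESeq2 called 0.921% and 6.24% of the genes to which it gave an adjusted p. The leading genes were ATG7, the E1-like enzyme of autophagy, at 0.21 in TFAP2C KD (adjusted p = 0.348) and UBA7, the E1 of ISG15, at -0.56 in the labelled UBA2 KD (adjusted p = 0.294). UBA7 had at most 1.496 CPM in that experiment.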
